A study of Mus musculus with 36 samples.

Results

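The small noncoding RNA genes are 87 genes, named by symbol, of the 49568 rows in the count tables: those that start with Snord, Snora, Scarna, Rnu or Rn7s, together with Rmrp and Rpph1, and that reached 10 or more counts in at least 3 libraries of either table. Of 170 rows with such a symbol, 83 did not reach this level, and 68 of those had no count in any library. The members were 40 Snord, 19 Snora, 8 Scarna, 14 Rnu and 4 Rn7s genes and Rmrp and Rpph1. The members were thus chosen by their symbol and by their measured counts, most of which came from replicates 4–6. That level was reached in both tables by 66 members, in the IFNγ table alone by 4 and in the IL-4 table alone by 17. Just inside the limit, Snord59a had 3 libraries at 10 counts or more, and just outside it Snora34 had 2.

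The libraries came from RAW264.7, an established mouse macrophage cell line, in 6 groups of 6 libraries, with 3 groups in each of 2 count tables. Cells of every group were kept for 72 h with a change of medium at 48 h. The PBS groups of the IFNγ and the IL-4 table are labelled PBS, with titles that also name the cytokine of their table. The paper's figure legends describe incubation with the cytokine, with or without a peptide, while its methods allow for cells without the cytokine. The sources thus do not settle whether the PBS cells also received the cytokine. The SE+IFNγ and PE+IFNγ groups received IFNγ (5 ng/ml) and a peptide of 15 residues (100 µg/ml), and the SE+IL-4 and PE+IL-4 groups a peptide of the same kind and IL-4 (5 ng/ml). The peptides cover residues 65 to 79 of the HLA-DRβ chain and carry either SE, the sequence associated with risk of rheumatoid arthritis, or PE, the protective sequence. All cells are of a single transformed line, and the study describes 6 biological replicates in 2 independent experiments. The labels number the libraries 1 to 6 and name replicates 1–3 and replicates 4–6 by different schemes, so these are treated here as a pair of replicate sets, without knowledge of what else separates them. Where the separation of cultures is not spelled out further, p-values measure the spread between these libraries.

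Total counts ranged from 17049921 to 63155889 per library. A summed check of Irf1, Gbp2 and Ciita, which respond to IFNγ, gave 251 to 291 CPM (counts scaled to library size by the TMM method) in replicates 1–3 of SE+IFNγ, 194 to 206 and 262 to 289 in the replicate sets of PE+IFNγ, and 14.5 to 16.3 in the PBS libraries of that table. Replicates 4–6 of SE+IFNγ gave 13.9 to 15.6 CPM, the level of the PBS libraries, and so go against their label. Fits over all replicates that use these 3 libraries are set beside the fit without them. In the IL-4 table the summed IL-4 response genes were at 31.5 to 89.1 CPM in the peptide groups and at 0.110 to 0.407 CPM in PBS. With the response genes of the peptide groups that far above PBS, a contrast with PBS is read here as one of cytokine and peptide together, and their parts cannot be told apart. The 7 macrophage markers summed to 3016 CPM or more in every library, and the T cell, B cell, epithelial and fibroblast marker lists (3 genes each) to at most 1.24 CPM. In bulk RNA, fewer cells that hold an RNA and less of it per cell cannot be told apart.

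These RNAs guide, process or carry other RNAs and proteins, and most of them lack the poly(A) tail of mRNA. Box C/D snoRNAs (most Snord genes) guide 2′-O-methylation and box H/ACA snoRNAs (Snora) guide pseudouridylation of ribosomal RNA, while scaRNAs (Scarna) do the same for spliceosomal RNAs in Cajal bodies. Most U RNAs (Rnu) form the cores of the spliceosomes, whereas U3, which acts in the processing of the ribosomal RNA precursor, and Rnu73b are snoRNAs. 7SL (Rn7s1, Rn7s2, Rn7s6) is the RNA of the signal recognition particle that takes ribosomes to the endoplasmic reticulum, 7SK (Rn7sk) holds the elongation factor P-TEFb inactive, and Rpph1 and Rmrp are the RNAs of RNase P, which trims tRNA precursors, and of RNase MRP, which cuts the ribosomal RNA precursor. RNA polymerase III makes 7SL, 7SK, Rpph1 and Rmrp, whereas in mammals most snoRNAs are cut from the introns of host genes. Of the 87 members, 56 lay in an intron of another gene on their strand, 10 overlapped an exon of such a gene and 21 lay outside any.

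Most counts of the members came from the long polymerase III transcripts. The sequences of 7SK and of the RNAs of RNase P and RNase MRP, which recur in the contrasts, were read from GENCODE M21 transcripts on GRCm38, as were all those given here. Of Rn7sk and Rpph1 the first 300 bases are given. Rn7s1 and Rn7s2 are identical, which bears on how their reads could be assigned.
Rn7sk, chr9:78175334-78175633, minus strand: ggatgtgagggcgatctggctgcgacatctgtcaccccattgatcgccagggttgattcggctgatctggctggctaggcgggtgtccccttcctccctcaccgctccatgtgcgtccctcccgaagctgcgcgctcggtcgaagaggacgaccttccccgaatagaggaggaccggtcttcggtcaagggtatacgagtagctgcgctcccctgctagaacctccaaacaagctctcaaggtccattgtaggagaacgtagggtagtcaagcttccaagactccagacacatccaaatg
Rpph1, chr14:50807468-50807767, minus strand: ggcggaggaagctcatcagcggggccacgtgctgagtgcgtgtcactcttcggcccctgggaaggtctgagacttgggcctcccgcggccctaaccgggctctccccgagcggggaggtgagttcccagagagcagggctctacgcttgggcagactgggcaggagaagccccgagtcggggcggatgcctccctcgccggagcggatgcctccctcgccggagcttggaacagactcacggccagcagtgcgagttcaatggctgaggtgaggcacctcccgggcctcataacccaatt
Rmrp, chr4:43492788-43493058, minus strand: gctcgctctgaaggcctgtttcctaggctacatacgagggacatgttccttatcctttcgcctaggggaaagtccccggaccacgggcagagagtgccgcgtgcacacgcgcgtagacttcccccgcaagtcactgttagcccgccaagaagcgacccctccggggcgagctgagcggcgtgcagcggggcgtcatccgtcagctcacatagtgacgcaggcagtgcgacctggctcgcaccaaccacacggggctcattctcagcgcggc

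The U1 and U3 genes are printed because their copies had to be read as families. Rnu1b2 is identical to Rnu1b1, and Rnu3b2, Rnu3b3 and Rnu3b4 are identical to Rnu3b1. Capitals in Rnu1b6 and Rnu3a mark bases without an identical partner in Rnu1b1 and Rnu3b1, respectively.
Rnu1b1, chr3:96359953-96360117, minus strand: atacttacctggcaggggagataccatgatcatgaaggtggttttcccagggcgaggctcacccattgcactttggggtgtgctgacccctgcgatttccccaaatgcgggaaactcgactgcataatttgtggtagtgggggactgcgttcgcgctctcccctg
Rnu1b6, chr3:96460024-96460189, minus strand: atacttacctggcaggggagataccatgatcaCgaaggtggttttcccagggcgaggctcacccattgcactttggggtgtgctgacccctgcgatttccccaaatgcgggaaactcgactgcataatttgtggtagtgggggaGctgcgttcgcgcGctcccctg
Rnu3b1, chr11:87443237-87443452, plus strand: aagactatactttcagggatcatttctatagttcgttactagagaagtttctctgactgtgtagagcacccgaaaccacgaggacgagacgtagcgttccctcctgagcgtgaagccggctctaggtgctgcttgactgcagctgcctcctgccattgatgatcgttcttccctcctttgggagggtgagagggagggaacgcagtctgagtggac
Rnu3a, chr10:40258467-40258680, plus strand: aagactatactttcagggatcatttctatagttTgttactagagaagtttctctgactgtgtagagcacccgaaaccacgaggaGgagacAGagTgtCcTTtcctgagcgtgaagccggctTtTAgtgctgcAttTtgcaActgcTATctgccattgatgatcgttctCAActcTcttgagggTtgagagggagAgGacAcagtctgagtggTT

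The RNAs shown next are a snoRNA and a scaRNA on which treatment contrasts turn (Snord83b, Scarna6), a pair with small differences between replicate sets (Snord104, Snord100) and a long H/ACA RNA (Snora23). Capitals mark the box C core TGATGA and the box D core CTGA, or the terminal ACA of the H/ACA RNA. Snord83b lies in an intron of Rpl3, Scarna6 in an intron of Atg16l1 and Snora23 in an intron of Ipo7 and opposite the antisense gene 1600010M07Rik, whereas Snord100 overlaps an exon of Rps12 and Snord104 lies outside other genes on its strand. Searched on the RNA strand only, TGATGA within 25 bases of the 5′ end together with CTGA within 15 bases of the 3′ end was found in 23 of 40 Snord members (57.5%), in 0 of 19 Snora members and in 0.270% of all 141515 annotated transcripts. ACA within 8 bases of the 3′ end was found in all 19 Snora members and in 11.5% of all transcripts.
Snord83b, chr15:80078498-80078591, minus strand: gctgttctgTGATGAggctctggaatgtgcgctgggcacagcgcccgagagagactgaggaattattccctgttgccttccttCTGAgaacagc
Snord104, chr11:106500993-106501062, plus strand: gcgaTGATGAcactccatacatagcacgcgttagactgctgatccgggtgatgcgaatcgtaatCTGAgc
Snord100, chr10:23785750-23785823, minus strand: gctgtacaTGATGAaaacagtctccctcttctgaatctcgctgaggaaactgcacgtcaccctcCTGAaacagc
Scarna6, chr1:87784556-87784820, plus strand: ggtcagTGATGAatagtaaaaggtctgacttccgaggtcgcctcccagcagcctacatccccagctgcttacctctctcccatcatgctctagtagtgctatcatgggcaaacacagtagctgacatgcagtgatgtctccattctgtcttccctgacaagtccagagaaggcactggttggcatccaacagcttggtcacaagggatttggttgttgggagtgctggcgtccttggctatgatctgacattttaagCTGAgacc
Snora23, chr7:110046364-110046547, plus strand: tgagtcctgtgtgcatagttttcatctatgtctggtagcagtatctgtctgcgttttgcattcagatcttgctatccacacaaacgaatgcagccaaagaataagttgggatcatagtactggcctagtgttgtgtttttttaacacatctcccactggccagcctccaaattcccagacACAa

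The members took a vastly different share of the library in the replicate sets. In the IFNγ table they held between 0.00215% and 0.0129% of the counts in replicates 1–3 and between 16.7% and 23.2% in replicates 4–6. In the IL-4 table they held between 0.00199% and 0.00814% in replicates 1–3 and between 4.39% and 7.21% in replicates 4–6. No library of replicates 1–3 came near replicates 4–6 in either table. The difference between the replicate sets was in view when the genes were proposed, so its values are a description and were not tested.

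In the PBS libraries of the IFNγ table the summed level of the members was 69.1, 70.4 and 113 CPM in replicates 1–3 and between 195170 and 222590 CPM in replicates 4–6. The means were 84.2 ± 25.025 (SD, n = 3) and 210290 ± 13924 CPM (SD, n = 3), a log2 ratio of 11.29 or 2497-fold. In the PBS libraries of the IL-4 table the means were 45.8 ± 31.3 and 47225 ± 2592 CPM (SD, n = 3 each), a log2 ratio of 10.01. The same ratio stood at 12.88 in SE+IFNγ, 12.51 in PE+IFNγ, 10.84 in SE+IL-4 and 10.53 in PE+IL-4, so it was at least 10.01 on the log2 scale in each of the 6 groups. Without the Rn7s genes the value in PBS of the IFNγ table was 8.98.

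All 59 members whose replicate sets did not overlap in the IFNγ table, and all 70 in the IL-4 table, were higher in replicates 4–6. Among the members that had themselves reached the level of the rule in that table these were 58 of 70 and 70 of 83, and 42 and 59 of the members reached it through replicates 4–6 alone, so those had to be higher there. Over all genes at that level, 24.0% in the IFNγ table and 27.5% in the IL-4 table were higher in every library of replicates 4–6, and 20.7% and 23.1% were lower, against 0 members. Since the rule looked at this contrast, nothing is read from these counts. Replication-dependent histone genes, whose mRNAs also lack a poly(A) tail, stood at 63.5 to 164 CPM in sum over 70 genes in replicates 1–3 of the IFNγ table and at 2602 to 7190 CPM in replicates 4–6, and at 54.0 to 140 and 3445 to 14582 CPM in the IL-4 table. What set the replicate sets apart was not tested.

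**Figure D1:**
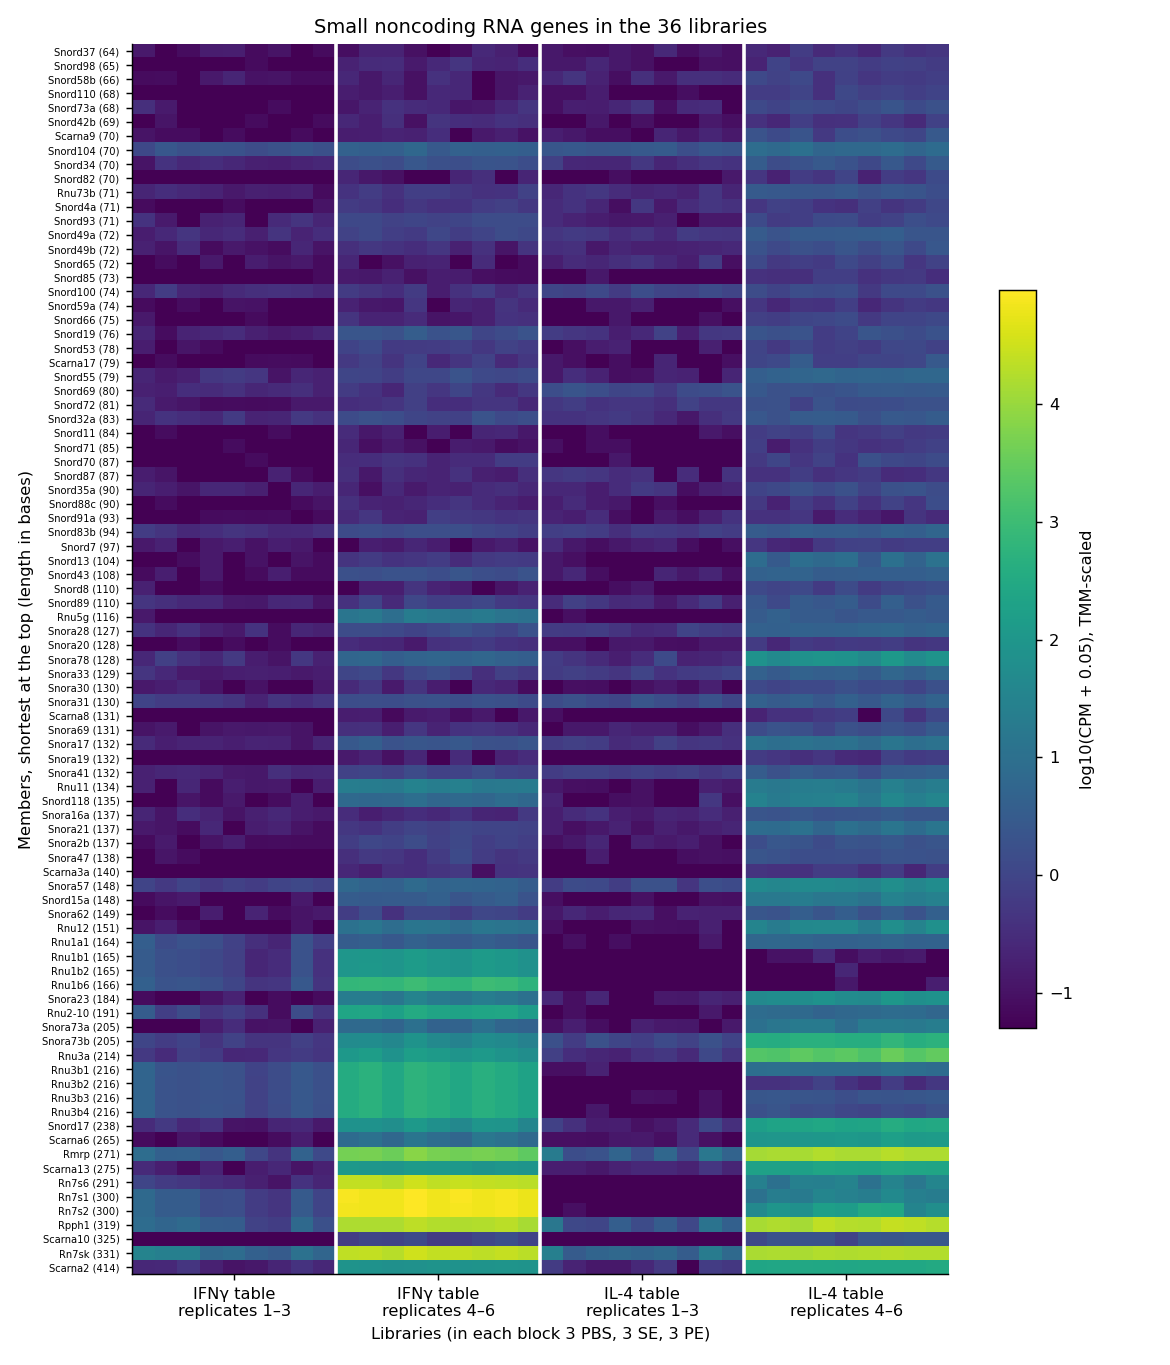
The heat map shows log10(CPM + 0.05) of the 87 members (rows, shortest RNA at the top, length in bases in brackets) in the 36 libraries (columns, 4 blocks of 9). Replicates 4–6 are brighter than replicates 1–3 in both tables, most of all for the long RNAs at the bottom. The Rnu1b and 7SL copies are far brighter in the IFNγ table.

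The size of the difference followed the length of the RNA. Members under 100 bases (36, most of them Snord genes) had a median of 6.27-fold in the IFNγ table and 8.55-fold in the IL-4 table. Those of 100 to 149 bases (26 members) had medians of 14.5-fold and 33.6-fold, and those of 150 bases or more (25 members) 336-fold and 664-fold. Spearman's correlation of length with the log2 ratio was 0.66 and 0.63 over 87 members, and 0.52 and 0.62 over the 56 intronic members alone. These are descriptions over genes that share libraries, and members without a count in replicates 1–3 entered at a lower bound set by 3 counts per set of 9 libraries.

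**Figure D2:**
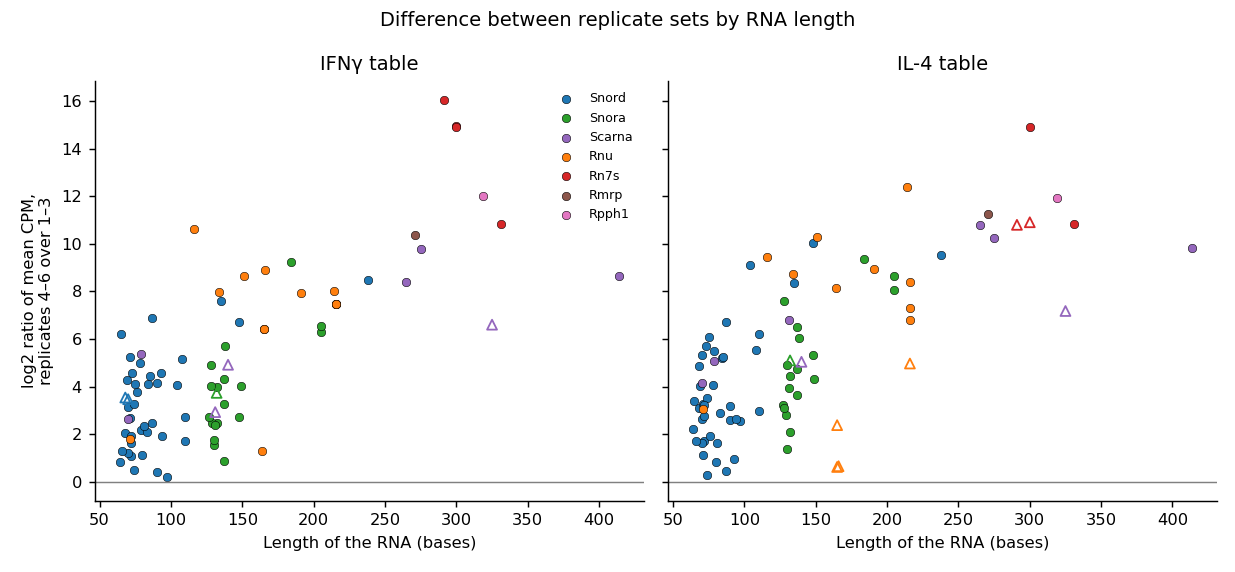
Each point is a member, placed by its length in bases (x) and by the log2 ratio of mean CPM in replicates 4–6 over replicates 1–3 (y), in the IFNγ table (left) and the IL-4 table (right). Colours give the class, and open triangles are lower bounds. Members under 100 bases lie mostly below 6, and the polymerase III RNAs near or above 10.

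By class, the median ratio was 9.25-fold and 9.33-fold for Snord, 13.3-fold and 27.04-fold for Snora, 63.9-fold and 128-fold for Scarna and 179-fold and 209-fold for Rnu genes in the IFNγ and IL-4 tables. The largest value without a bound in the IFNγ table belonged to Rn7s6 (log2 16.05), followed by Rn7s1 (14.94), Rn7s2 (14.90), Rpph1 (12.02) and Rn7sk (10.83). At the other end, Snord7 (0.18), Snord35a (0.41) and Snord100 (0.48) had overlapping replicate sets. Lowest among members of the IL-4 table were Snord100 (0.30) and Snord87 (0.45), and highest were Rn7s2 (14.91, on 1 count in replicates 1–3) and Rnu3a (12.38). Of these, Snord7, Snord35a, Snord87 and Snord100 lie outside the rule for named genes and were chosen after their values were seen.

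Snord104 and Snord100, both under 100 bases, show the small end. Snord104 ran from 1.09 to 2.51 CPM (median 1.70) in replicates 1–3 of the IFNγ table and from 2.82 to 6.06 CPM (median 3.97) in replicates 4–6. In the IL-4 table it ran from 1.55 to 3.09 and from 5.60 to 10.03 CPM. Its sets did not overlap but differed by 2.30-fold and 3.05-fold only. Snord100 overlapped between the sets, at 0.138 to 0.605 and 0.111 to 0.585 CPM in the IFNγ table and at 0.568 to 1.43 and 0.501 to 1.73 CPM in the IL-4 table. It overlaps an exon of Rps12, so reads of the mRNA could have been counted to it or withheld from it.

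Long members of each class show the other end. Rn7sk ran from 3.08 to 32.2 CPM (median 8.13) and from 20163 to 32663 CPM in the sets of the IFNγ table, and from 3.09 to 25.1 and from 14465 to 19298 CPM in the IL-4 table. Scarna2, a scaRNA of 414 bases outside other genes, ran from 0.0580 to 0.405 and from 69.0 to 88.7 CPM, and from 0 to 0.603 and from 238 to 320 CPM. Snord17, an unusually long box C/D RNA in an intron of Snx5, ran from 0.0529 to 0.484 and from 36.3 to 122 CPM, and from 0.0432 to 1.12 and from 164 to 382 CPM. In each of these the lowest library of replicates 4–6 was far above the highest of replicates 1–3. Snora23 in Ipo7 had 0 to 0.145 CPM and 10.1 to 31.2 CPM in the IFNγ table, a ratio of 597-fold, and 664-fold in the IL-4 table.

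The genes that hold the members had ratios around 0. For 61 members with a host gene on their strand, in 48 hosts, the median log2 ratio of the hosts was -0.14 in the IFNγ table and 0.15 in the IL-4 table, while that of the members was 3.54 and 4.16. The hosts were not chosen by the rule, whereas many members had to be higher in replicates 4–6 to be chosen, so the gap between them is a description. Hosts ranged from -1.52 to 2.02 and from -1.55 to 2.87. The 4 measured core proteins of the box C/D particle summed to 440 to 554 CPM in replicates 1–3 and to 331 to 452 CPM in replicates 4–6 of the IFNγ table.

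Compared per length, the order of the members changed between the sets. In replicates 1–3 of the IFNγ table Rn7sk was highest, with a mean of 40.9 CPM per kb, followed by Snord104 with 25.6, Rpph1 with 13.1 and Rmrp with 12.6 CPM per kb. In replicates 1–3 of the IL-4 table Snord104 was first with 34.1 CPM per kb, before Rn7sk with 27.7, Rmrp with 23.4, Snord69 with 17.03 and Rpph1 with 15.2 (Snord69 lies outside the rule for named genes and was added for its place in this order). Snord104 (70 bases) and Snord69 (80 bases) are shorter than the reads of 100 bases, so the division by length places them too high beside long RNAs. Undivided, Snord104 had group means of 2.06 to 2.74 CPM there and Rn7sk 6.27 to 11.2 CPM. Snord69 also overlaps an exon of Gnl3, so reads of that mRNA could have been counted to it. Leading in replicates 4–6 of the IL-4 table were Rpph1 (59752 CPM per kb), Rmrp (57912) and Rn7sk (50789), and their ranges per library overlapped, as did those of Rpph1 and Rmrp in replicates 1–3. Snord104 then stood at 104 CPM per kb. In replicates 4–6 of the IFNγ table Rn7s1 (247670 CPM per kb), Rn7s2 (240510), Rn7s6 (84666), Rn7sk (74195) and Rpph1 (54504) led, with Rmrp at 16619 CPM per kb.

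The tables were scaled separately, so levels across them are set side by side only. Of the counts in replicates 4–6, Rn7sk took 1.83% to 2.65% in the IFNγ table and 1.38% to 1.96% in the IL-4 table, and Rpph1 1.31% to 1.82% and 1.25% to 2.60%. Rmrp took 0.239% to 0.575% and 1.34% to 2.03%. For 7SL the tables parted entirely. Rn7s1 took 5.59% to 7.54% of the counts in the IFNγ table and 0.00118% to 0.00470% in the IL-4 table, and Rn7s2 5.58% to 7.54% and 0.00349% to 0.0312%.

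The members that parted furthest in this way were 7SL, Rnu1b and Rnu3b genes and Rnu2-10, which share sequence with other genes in whole or in part. Shared sequence did not mark them alone. Rnu1a1, whose stretches of read length are all shared with other genes, had means of 3.27 and 5.11 CPM in replicates 4–6 of the IFNγ and IL-4 tables. Over replicates 4–6 the mean of Rn7s1 was 74302 CPM in the IFNγ table and 25.8 CPM in the IL-4 table, that of Rnu1b6 777 and 0.0210 CPM, that of Rnu1b1 102 and 0.0695 CPM and that of Rnu3b2 379 and 0.419 CPM. In contrast, 70 of the 87 members had the higher mean in the IL-4 table, with a median ratio of 3.25 over all members. Rnu3a, whose sequence sets it apart from the Rnu3b copies, had 110 CPM in the IFNγ table and 2289 CPM in the IL-4 table. The U3 genes summed to medians of 1577 and 2091 CPM, a closer match than any of them alone. The summed 7SL genes (164320 and 124 CPM) and U1 genes (923 and 4.91 CPM) remained far apart, although the U1 sum was closer than Rnu1b1 or Rnu1b6 alone. These sums hold members only. Other annotated genes, such as Gm26461 for 7SL and Gm22042 for U1, share stretches of read length with them. Reads counted to such genes are not in the sums, so the gap is not one of whole families.

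Counts of identical copies behaved differently in the tables. In replicates 1–3 of the IFNγ table Rn7s1 and Rn7s2 had the same count in 9 of 9 libraries, from 14 to 247, and Rnu1b1 and Rnu1b2 likewise, from 7 to 114. In replicates 4–6 of that table Rn7s1 and Rn7s2 differed by under 1% in 7 of 9 libraries, the exceptions being PBS replicate 4, with 4434353 and 3917857 counts, and SE+IFNγ replicate 6, with 2474148 and 2184454. Unlike these, Rn7s1 had 201 to 1354 and Rn7s2 805 to 7884 counts in replicates 4–6 of the IL-4 table, a ratio from 1.34 to 14.3. The 4 Rnu3b copies were within 1% of each other in 9 of 9 libraries of replicates 4–6 in the IFNγ table, at 7719 to 20379 counts, whereas in the IL-4 table Rnu3b1 had 134 to 314 and Rnu3b2 4 to 18. The methods describe counting of uniquely aligned reads, and a read from within identical copies has no unique place. Values of each 7SL, U1 and Rnu3b gene are therefore uncertain, and how the tables came to differ was not tested. Of the stretches of read length, 61.2% in Rn7sk, 60.9% in Rpph1 and 100% in Rnu2-10 also occur, on either strand, in other annotated genes. Values of these members carry a like limit.

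**Figure D3:**
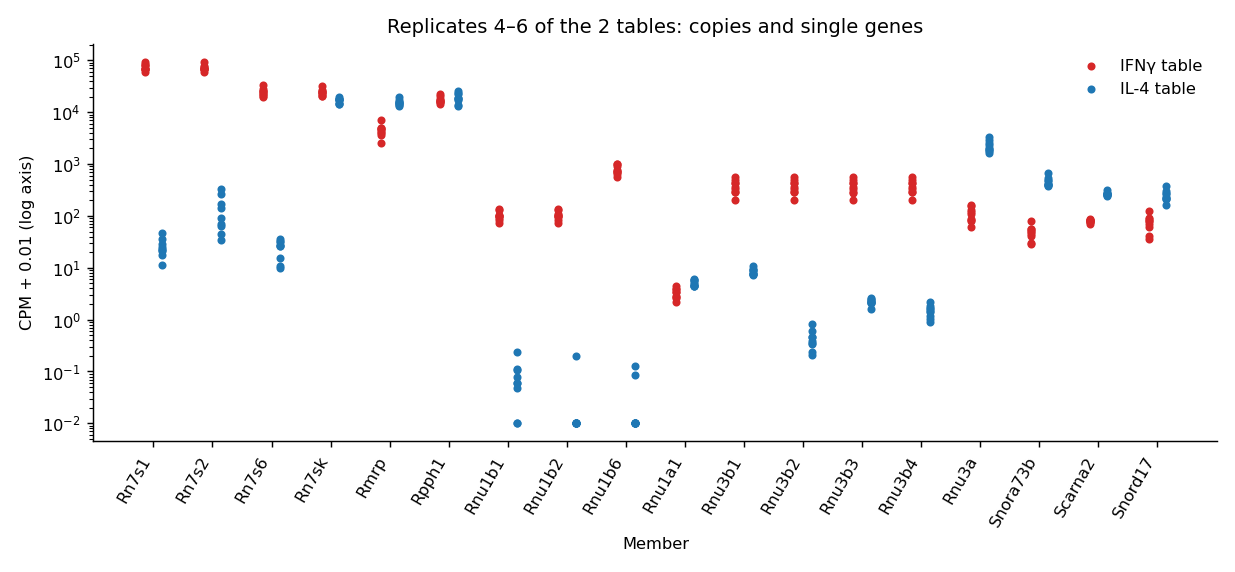
Points show CPM + 0.01 on a log axis for 18 members in the 9 libraries of replicates 4–6 of the IFNγ table (red) and of the IL-4 table (blue). The 7SL, U1b and U3b copies lie far higher in the IFNγ table, while Rn7sk and Rpph1 lie close together and Rnu3a, Snora73b, Scarna2 and Snord17 lie higher in the IL-4 table.

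The treatment contrasts asked whether any member changed with the cytokine and a peptide, or between the peptides. They were fitted over all replicates with edgeR's quasi-likelihood test with the replicate set as a term, and a call needed both a fold change over 1.5 and a p under 0.05 after Benjamini-Hochberg adjustment over all genes tested. Of the 87 members, 56 passed the filter on low counts in the IFNγ table. Between SE+IFNγ and PBS 1 of 56 members was called, Snord55, against 3.57% of all genes. Between PE+IFNγ and PBS 2 of 56 were called, Rn7sk and Snord83b, both lower, against 13.0% of all genes and 6.47% in that direction. Between the peptides 0 of 56 were called, against 3.19% of all genes. For this last contrast 6 members had an unadjusted p under 0.05 and DESeq2 called 3. The median log2 fold change of the members was -0.11, -0.19 and 0.13 in the contrasts, beside -0.02, -0.02 and 0.01 over all genes tested. Without SE+IFNγ replicates 4–6, 5 of 60 members were called between SE+IFNγ and PBS (18.6% of all genes), Snord55 higher and Rn7sk, Rn7s1, Rn7s2 and Scarna2 lower, and 2 of 60 between the peptides (5.16% of all genes), Snord55 and Scarna2. The median log2 fold change of the members was then -0.69 and -0.44, beside -0.0096 and -0.014 over all genes. Rn7s1 and Rn7s2 are identical in sequence, so their calls are not separate measurements. In replicates 1–3 Scarna2 had 5, 2 and 3 counts in SE+IFNγ, 7, 7 and 13 in PBS and 6, 13 and 7 in PE+IFNγ. Its calls rest on these few counts, and it did not pass the filter on low counts when that set was fitted alone.

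Snord55, a box C/D snoRNA, was counted at low depth. PBS had 6, 3 and 4 counts in replicates 1–3 and 54, 23 and 27 in replicates 4–6. SE+IFNγ had 17, 19 and 17 counts and 22, 19 and 58, and PE+IFNγ had 2, 7 and 5 counts and 27, 32 and 52. Each SE+IFNγ library lay above each PBS library within its replicate set once scaled to CPM, at 0.449 to 0.551 against 0.0908 to 0.168 CPM in replicates 1–3 and 1.05 to 1.97 against 0.640 to 0.975 CPM in replicates 4–6. On the log2 scale SE+IFNγ was higher by 1.19 (SE 0.30, adjusted p = 0.0249). Without SE+IFNγ replicates 4–6 the value for Snord55 was 2.09, and it was 1.93 (SE 0.42, adjusted p = 0.00175) in replicates 1–3 and 0.73 (SE 0.31, adjusted p = 0.262) in replicates 4–6 alone. The call was lost without any of replicates 1, 2, 3 or 6, with values from 1.02 to 1.12. Between SE+IFNγ and PE+IFNγ it was 1.85 in replicates 1–3 (adjusted p = 0.00567) and 0.26 in replicates 4–6 (adjusted p = 0.581), and the difference between the replicate sets was -1.61 (adjusted p = 0.0228, edgeR's quasi-likelihood test). In replicates 1–3 only SE+IFNγ libraries reached 10 counts. Snord55 was therefore tested in that set through the group where it is high, and nothing is read from its calls there.

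Snord83b, a box C/D snoRNA in Rpl3, was lower in PE+IFNγ than in PBS. PBS had 0.616, 0.393 and 0.218 CPM in replicates 1–3 and 1.30, 1.50 and 1.16 in replicates 4–6, and PE+IFNγ had 0.205, 0.218 and 0.312 CPM and 1.04, 0.841 and 0.636 CPM. The groups overlapped in replicates 1–3 and did not overlap in replicates 4–6. On the log2 scale the difference was -0.70 (SE 0.22, adjusted p = 0.0224), and for Rpl3 it was 0.06 (SE 0.06, adjusted p = 0.511). Leaving out replicate 1, 2, 5 or 6 ended the call, with values from -0.67 to -0.53. SE+IFNγ had 0.276 to 0.377 CPM and 1.53 to 1.60 CPM, and its log2 fold change against PBS was 0.01 (SE 0.22, adjusted p = 0.986), or -0.31 (SE 0.34, adjusted p = 0.520) without its replicates 4–6.

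Rn7sk was called lower in PE+IFNγ over all replicates (log2 fold change -1.17, SE 0.40, adjusted p = 0.0299), but the replicate sets gave unlike values. In replicates 1–3 PBS had 32.2, 25.8 and 25.99 CPM, SE+IFNγ 6.35, 8.13 and 4.02 CPM and PE+IFNγ 3.08, 10.8 and 5.44 CPM. The 3 PBS libraries were above all 6 peptide libraries. In replicates 4–6 PBS had 20163 to 24052, SE+IFNγ 24929 to 32663 and PE+IFNγ 20594 to 26416 CPM. The log2 fold change of PE+IFNγ against PBS was -2.08 (SE 0.31, adjusted p = 0.000105) in replicates 1–3 and 0.036 (SE 0.13, adjusted p = 0.883) in replicates 4–6, and the sets differed by 2.15 (SE 0.37, adjusted p = 0.00122, edgeR's quasi-likelihood test). The fit without the replicate set gave 0.034.

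The filter of the IL-4 table was passed by 76 of the 87 members, and again few were called. Rn7s2 was the single member of 76 called between SE+IL-4 and PBS (3.10% of all genes), higher in SE+IL-4 by 1.62 on the log2 scale (SE 0.48, adjusted p = 0.0450). It had 44.4, 92.0 and 69.6 CPM in PBS and 172, 142 and 329 CPM in SE+IL-4 in replicates 4–6 and at most 1 count in any library of replicates 1–3, and its count cannot be separated from that of Rn7s1, which had 0.79 (SE 0.31, adjusted p = 0.141). The call was lost without replicate 1, 2, 3 or 6, with values from 1.18 to 1.64, and with DESeq2 (1.24). Between PE+IL-4 and PBS the called member was Scarna6 (4.35% of all genes), and between the peptides 0 of 76 members were called (0.00741% of all genes), with 11 at an unadjusted p under 0.05 and 1 called by DESeq2. The median log2 fold change of the members was -0.12 for SE+IL-4, 0.18 for PE+IL-4 and -0.29 between the peptides, beside -0.05, -0.04 and 0.00 over all genes.

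Scarna6, a scaRNA with both box C/D cores in an intron of the autophagy gene Atg16l1, had 94.97, 101 and 99.8 CPM in replicates 4–6 of PBS, 104, 116 and 102 CPM in SE+IL-4 and 172, 129 and 138 CPM in PE+IL-4. The PE+IL-4 libraries were above all others there. Replicates 1–3 held at most 6 counts each and showed no order. The log2 fold change of PE+IL-4 against PBS was 0.59 (SE 0.15, adjusted p = 0.0143), and 0.57 (SE 0.12, adjusted p = 0.0355) in replicates 4–6 alone, under the 1.5-fold limit. It was 0.47 without replicate 4 and 0.55 without replicate 1, both under the limit. That of Atg16l1 was 0.02 (SE 0.09, adjusted p = 0.921).

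Fitted on their own, replicates 1–3 of the IFNγ table gave more calls. Between SE+IFNγ and PBS 8 of the 28 members tested were called, 7 of them lower, against 22.8% of all genes and 10.2% lower, and between PE+IFNγ and PBS 4 of 28, all lower, against 19.8% and 9.54% lower. Rn7s1 and Rn7s2 had the same count in every library here, as had Rnu1b1 and Rnu1b2, and the Rnu3b copies nearly so. Such rows are not separate measurements, so these counts hold fewer separate calls than members. Between the peptides 1 of 28 was called, Snord55, against 6.08%. Snord55 passed the filter on low counts in these libraries through SE+IFNγ alone, where it is high, so its calls here are a description. The median log2 fold change of the 28 members was -0.91 and -0.77. The members called lower in both contrasts were Rn7sk, Rn7s1, Rn7s2 and Rn7s6, which share the PBS libraries. Rn7s1 had 6.91, 3.27 and 3.30 CPM in PBS, 1.35, 1.54 and 0.608 CPM in SE+IFNγ and 0.411, 2.92 and 0.907 CPM in PE+IFNγ, without overlap with PBS. Its log2 fold change was -1.93 (SE 0.51, adjusted p = 0.00614) and -1.62 (SE 0.50, adjusted p = 0.0156), and the value of Rn7sk for SE+IFNγ was -2.16 (SE 0.31, adjusted p = 6.23e-05). Rnu1b1 (-1.62, adjusted p = 0.0409), Rnu2-10, a U2 gene (-1.88, adjusted p = 0.0414), and Rn7s6 (-1.57, adjusted p = 0.0147) were also lower in SE+IFNγ. Rn7s6 had 35, 19 and 15 counts in PBS, 11, 8 and 5 in SE+IFNγ and 2, 13 and 6 in PE+IFNγ. It passed the filter on low counts in these libraries only through PBS, where it is high, so its calls here are a description too.

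Rpph1 and Rmrp had values of the same sign that did not pass the test. Rpph1 had 8.12, 5.60 and 7.19 CPM in PBS, 3.40, 3.34 and 0.819 CPM in SE+IFNγ and 0.645, 6.92 and 1.67 CPM in PE+IFNγ, so that SE+IFNγ differed from PBS by -1.45 on the log2 scale (SE 0.58, adjusted p = 0.0530) and PE+IFNγ by -1.13 (SE 0.57, adjusted p = 0.118). For Rmrp the difference was -1.21 in SE+IFNγ (SE 0.58, adjusted p = 0.0985) and -1.42 in PE+IFNγ (SE 0.59, adjusted p = 0.0619). PE+IFNγ replicate 2 was the highest peptide library for each of Rn7sk, Rn7s1, Rpph1 and Rmrp. Over the 9 libraries of replicates 1–3, which share library and depth for each RNA, the log2 CPM of Rpph1 and Rmrp had Pearson's r of 0.96, Rn7sk and Rpph1 0.90 and Rn7sk and Rmrp 0.87 in the IFNγ table. In replicates 1–3 of the IL-4 table, where no member was called with all libraries, r was 0.98, 0.95 and 0.95 in the same order. Snord104, in contrast, had 1.09 to 2.51 CPM in PBS, 1.37 to 1.93 in SE+IFNγ and 1.62 to 2.34 in PE+IFNγ, and it differed from PBS by -0.0043 on the log2 scale in SE+IFNγ (SE 0.28, adjusted p = 0.992) and by 0.14 in PE+IFNγ (SE 0.28, adjusted p = 0.697).

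**Figure D4:**
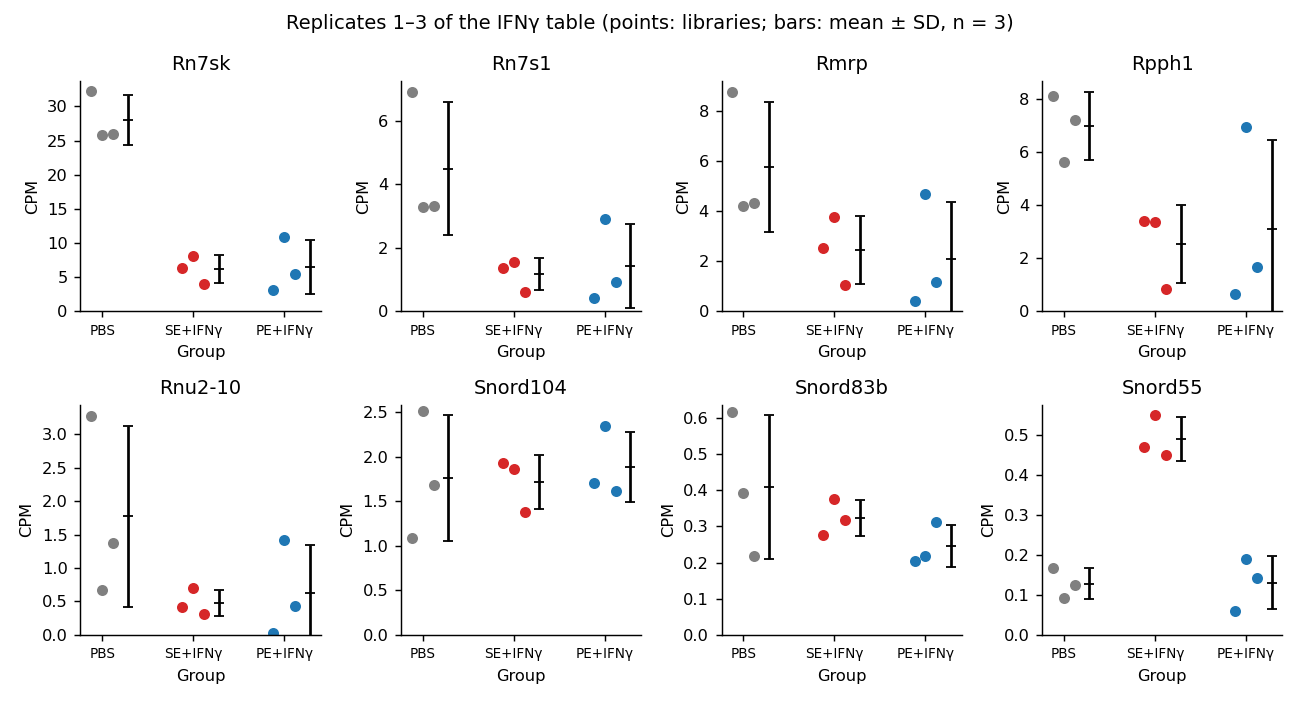
CPM of 8 members (y, linear from 0) in PBS, SE+IFNγ and PE+IFNγ (x) in replicates 1–3 of the IFNγ table, with points for libraries and bars for mean ± SD (n = 3; bars that pass 0 are cut there). All PBS libraries lie above the peptide libraries for Rn7sk and Rn7s1, Snord104 overlaps in all groups and Snord55 is highest in SE+IFNγ.

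Histone mRNAs were also lower in the peptide groups of replicates 1–3 of the IFNγ table, but not of the IL-4 table. In the latter the median of their sum was 66.6 CPM in PBS, 93.3 in SE+IL-4 and 87.2 in PE+IL-4, with overlapping ranges. The histone sum was 155 to 164 CPM in PBS, 68.8 to 76.8 in SE+IFNγ and 63.5 to 73.8 in PE+IFNγ in replicates 1–3 of the IFNγ table. Over these 9 libraries it had Pearson's r of 0.83 and Spearman's rho of 0.65 with the summed level of the members. Pearson's r was lower elsewhere, at 0.57 in replicates 4–6 of the IFNγ table (rho 0.35), 0.01 in replicates 1–3 of the IL-4 table (rho 0.13) and -0.25 in its replicates 4–6 (rho -0.12). The part of histone mRNAs in these calls was not tested. Leaving out replicates 1, 2 or 3 gave 10 of 28, 12 of 26 and 4 of 29 members for SE+IFNγ. Called among all genes were 3168 of 15300, 3242 of 15453 and 3416 of 15419. For PE+IFNγ it gave 1 of 28, 12 of 26 and 2 of 29 members, beside 2490, 3091 and 2923 of those genes. Leaving out the Rn7s genes before scaling also took them out of the test, so their own calls had to be lost. This left 4 of 24 and 0 of 24 members, beside 3502 and 3043 of 15339 genes. Nothing is read from that loss.

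Replicates 4–6 of the IFNγ table, fitted alone, had 0 of 65 members called between SE+IFNγ and PBS (0.720% of all genes), with 6 at an unadjusted p under 0.05, and 0 of 65 between PE+IFNγ and PBS (10.8% of all genes), with 3 at an unadjusted p under 0.05. Of the peptide libraries in this set only those of PE+IFNγ carried the IFNγ response. Between the peptides 3 of 65 were called (13.8% of all genes), Rnu11, the RNA of the U11 particle of the minor spliceosome, whose sequence windows of read length are all shared with Gm28872 (log2 fold change 0.62, SE 0.12, adjusted p = 0.00184), Snord83b (0.92, SE 0.26, adjusted p = 0.0183) and Snord32a (-0.89, SE 0.28, adjusted p = 0.0309). Snord32a falls outside the rule for named genes and was chosen after its values were seen. These calls rest on the SE+IFNγ libraries that go against their label and cannot be given without them, and leaving out replicate 4, 5 or 6 gave 0, 1 and 2 calls. In the IL-4 table neither replicate set, with all its libraries, had a call in any contrast by edgeR. At an unadjusted p under 0.05 were 2, 0 and 2 of 24 members in replicates 1–3 and 9, 12 and 8 of 79 in replicates 4–6. These values are for SE+IL-4 against PBS, PE+IL-4 against PBS and between the peptides, in that order. The shares of all genes called were 6.44%, 3.95% and 0% and then 1.05%, 2.24% and 0%. Without replicate 1, replicates 1–3 had 2 of 27 members called for SE+IL-4 (1904 of 12311 genes) and 5 of 27 for PE+IL-4 (929 of 12311 genes).

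**Figure D5:**
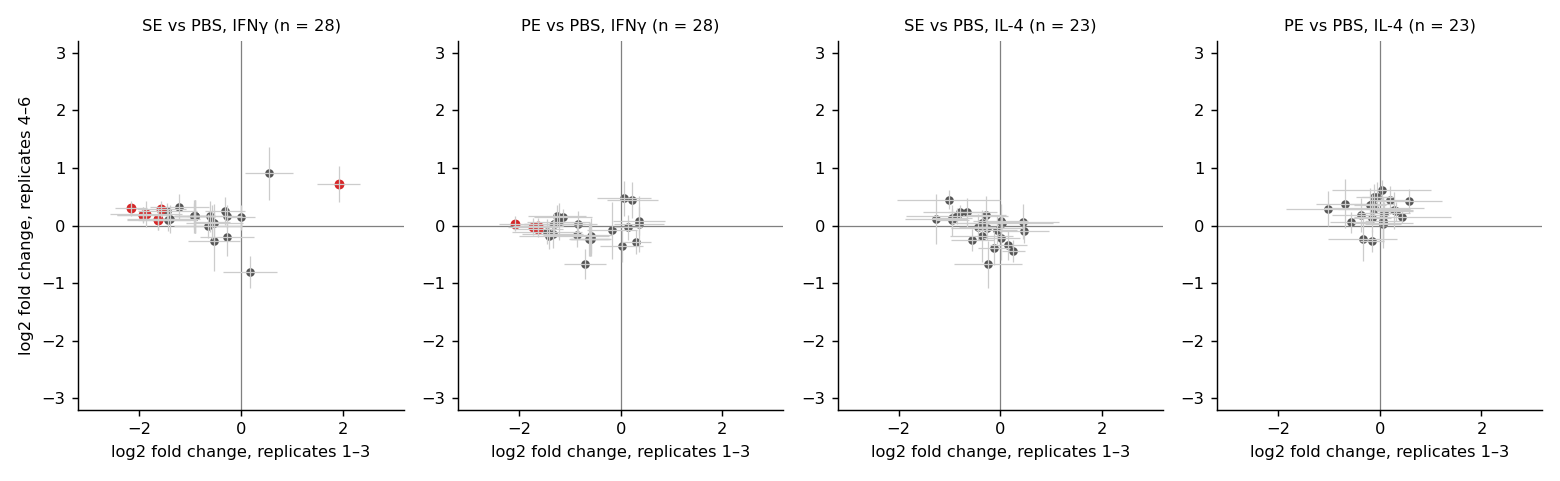
Each point is a member tested in both replicate sets (28 in the IFNγ table, 23 in the IL-4 table), with its log2 fold change against PBS in replicates 1–3 (x) and in replicates 4–6 (y) and bars of 1 SE; red marks members called in either set. In the IFNγ panels most points lie left of 0 on x and near 0 on y, with the called members between -2.16 and -1.57 and Snord55 at 1.93 in the SE panel.

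The replicate sets differed in their response at an adjusted p under 0.05 in 12 of 56 members in SE+IFNγ against PBS (37.6% of all genes), 4 of 56 in PE+IFNγ against PBS (12.4%) and 3 of 56 between the peptides (30.6%). In the IL-4 table this test by edgeR was passed by 0 of 76 members in each contrast, where 8, 5 and 5 members had an unadjusted p under 0.05 and the share of all genes was 4.83%, 0.00741% and 0%. The 4 members in PE+IFNγ against PBS, which do not rest on the SE+IFNγ libraries, were Rn7sk and the 7SL genes Rn7s1 (1.59, SE 0.49, adjusted p = 0.0409), Rn7s2 (1.65, SE 0.49, adjusted p = 0.0332) and Rn7s6 (1.75, SE 0.52, adjusted p = 0.0326). Rn7s1 and Rn7s2 are identical in sequence, so their rows are not separate measurements. The 12 members in SE+IFNγ against PBS hold this pair and the identical Rnu1b1 and Rnu1b2.

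The proteins that work with these RNAs, and noncoding hosts of snoRNAs in general, were mostly not called in the same fits. No gene was called in any contrast among the 4 measured core proteins of the box C/D particle, 7 of the H/ACA particle and its assembly, 2 of the Cajal body, 7 of the signal recognition particle, 7 of the 7SK particle, 10 tested of RNase P and RNase MRP and 19 of the spliceosomal particles. Of 19 genes of RNA polymerase III and SNAPc, Polr3g, a polymerase III subunit, was lower in PE+IFNγ (log2 fold change -0.77, SE 0.15, adjusted p = 0.000807), where 6.47% of all genes were. Without SE+IFNγ replicates 4–6, the contrast of SE+IFNγ with PBS called 2 of 7 H/ACA genes (Dkc1 and Nop10, lower), 1 of 10 genes of RNase P and RNase MRP (Pop4, higher) and 4 of 19 genes of RNA polymerase III and SNAPc (3 lower), against 18.6% of all genes, and these were named after their values were seen. Of 13 noncoding host genes tested, 4 were higher in SE+IFNγ against PBS (2.83% of all genes) and 4 in PE+IFNγ against PBS (6.55% of all genes), and 0 were called in the IL-4 table by edgeR. Without SE+IFNγ replicates 4–6 the first count was 6 (10.8% of all genes), with 1 lower. Snhg5 had 0.98 (SE 0.23, adjusted p = 0.0200) and 1.40 (SE 0.23, adjusted p = 0.000248), Snhg12 0.76 (SE 0.22, adjusted p = 0.0395) and 1.07 (SE 0.21, adjusted p = 0.00115) and Snhg1 0.76 (SE 0.17) in both, with adjusted p = 0.0167 and 0.00246. The values of Snhg5, Snhg12 and Snhg1 for SE+IFNγ were 1.53, 1.40 and 1.28 without those libraries. Of these genes Snhg12 holds a member, whereas no member lay in Snhg5 or Snhg1, so their values are not those of hosts of the members. In replicates 4–6 alone the value of Snhg12 for SE+IFNγ, on the libraries against their label, was -0.11.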

How the data were processed

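RNA-seq of RAW264.7 cells in 36 libraries was analysed from 2 tables of 18 libraries. The deposited values are whole-number counts per gene, not normalised: by the methods the authors took 200 ng of total RNA, prepared TruSeq stranded mRNA libraries (the labels name a TruSeq RNA kit), sequenced single-end 100-base reads and counted uniquely aligned reads with featureCounts on GRCm38.p5 and a GENCODE annotation. The aligner and the strand setting are not given in the sources used here. Reads shared by copies or overlapping genes, or by a gene and its antisense partner, can thus be split, dropped or misassigned. The submitters' processing notes name R 3.4.1 and DESeq2 1.16.1.

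Here counts were tested with edgeR 4.0.16 (R 4.3.3, TMM, filterByExpr, glmQLFit and glmQLFTest, Benjamini-Hochberg adjustment over all genes tested), with the replicate set as a term, and with DESeq2 1.42.0 as an alternative. The code was tested on simulated data. The members and all gene lists were chosen with earlier results of these data known. Named genes were each Rnu and Rn7s gene, Rmrp, Rpph1, the 5 Snord, Snora and Scarna genes with the highest mean log2 CPM, and up to 3 risen and 3 fallen members called over all replicates whose groups did not overlap within each replicate set; partner genes were named only where called, up to 3 a list. Gene positions and sequences come from GENCODE M21 (GRCm38), used in place of the authors' release. A library at 0 counts allows up to 3 counts, 0.0542 to 0.173 CPM at these depths, which covers counting error only. Alternatives were other scaling, filters and terms, each replicate set alone, and leaving out each replicate, SE+IFNγ replicates 4–6 or the Rn7s genes. A gene of the IFNγ response list, left out of its sum, a host gene and some member sequences are not reported here.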

Additional observations from a re-analysis of the deposited data

Results flagged for a closer look

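Of 219 sets of 6 libraries of a named member, 5 had a library far from the others by Dixon's test, and chance flags about 1 in 20 such groups. All 5 were in the IL-4 table: Rnu1b2 in SE+IL-4 replicate 5 (0.185 CPM, all others 0), Rnu1b6 in the same library (0.0740 CPM, all others 0) and in PE+IL-4 replicate 6 (0.115 CPM, all others 0), Rn7s2 in PE+IL-4 replicate 4 (270 CPM, next 63.6) and Scarna17 in PBS replicate 6 (3.28 CPM, next 1.15). The U1 values are of 5 counts or fewer, and Rn7s2 shares its sequence with Rn7s1.

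Treatment contrasts differed between the replicate sets, by edgeR's test of the difference itself, for the following named members of the IFNγ table, as log2 fold change in replicates 4–6 minus that in replicates 1–3. Against PBS, SE+IFNγ differed by 2.49 in Rn7sk, 2.15 in Rn7s1, 2.15 in Rn7s2, 1.89 in Rn7s6, 1.77 in Rnu1b1, 1.77 in Rnu1b2, 1.57 in Rnu1b6, 2.12 in Rnu2-10, 1.72 in Rpph1, 1.55 in Scarna2 and 4.35 in Rnu12, which had at most 4 counts in each library of replicates 1–3. These rest on SE+IFNγ replicates 4–6, which go against their label. Against PBS, PE+IFNγ differed by 2.15 in Rn7sk, 1.59 in Rn7s1, 1.65 in Rn7s2 and 1.75 in Rn7s6. Between SE+IFNγ and PE+IFNγ the difference was -1.61 in Snord55, 1.24 in Scarna2 and 1.02 in Snora57. Scarna2 had at most 13 counts in each library of replicates 1–3. The cause of these differences was not tested.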

How the results depend on the processing

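The number of members called was small in every fit over all replicates, with 56 tested in the IFNγ table and 76 in the IL-4 table. By DESeq2 and without a filter 87 were tested. Fits without the Rn7s genes did not test those genes, so their own calls had to be lost there. Calls over all genes moved with the setting too and follow each contrast. For SE+IFNγ against PBS (1 called) it was 2 without a filter, 0 with at least 10 counts in every library (13 members left), 0 without the replicate set, 8 in replicates 1–3, 0 in replicates 4–6, 5 without SE+IFNγ replicates 4–6, and 0 to 1 without a replicate. Of all genes 569 of 15949 were called, then 907 of 34716, 390 of 12461 and 25 of 15949. The replicate sets gave 3505 of 15343 and 112 of 15563, and leaving out SE+IFNγ replicates 4–6 gave 3093 of 16672. Leaving out a replicate gave 14 to 1108. For PE+IFNγ against PBS (2 called) it was 1 by DESeq2, 1 at 10 counts, 0 without the replicate set, 4 and 0 in the replicate sets, 1 without the Rn7s genes, and 0 to 3 without a replicate. Here 2076 of 15949 genes were called, then 2305 by DESeq2, 1500 of 12461 and 893 of 15949. The replicate sets gave 3045 of 15343 and 1685 of 15563, leaving out the Rn7s genes 2069 of 16108 and leaving out a replicate 1682 to 2267. For SE+IFNγ against PE+IFNγ (0 called) it was 1 with RLE scaling, 3 by DESeq2, 1 and 3 in the replicate sets, 2 without SE+IFNγ replicates 4–6, and 0 to 1 without a replicate. All genes had 509 of 15949 called, then 508 with RLE scaling and 679 by DESeq2. The replicate sets gave 933 of 15343 and 2150 of 15563, leaving out SE+IFNγ replicates 4–6 860 of 16672 and leaving out a replicate 296 to 536. For SE+IL-4 against PBS (1 called) it was 0 by DESeq2, 2 without a filter, 0 at 10 counts (10 members left), 0 without the replicate set, 0 in each replicate set, 0 without the Rn7s genes, and 0 to 1 without a replicate. Of all genes 418 of 13494 were called, then 500 by DESeq2, 670 of 27458, 293 of 10893 and 62 of 13494. The replicate sets gave 795 of 12350 and 141 of 13472, leaving out the Rn7s genes 418 of 13534 and leaving out a replicate 234 to 440. For PE+IL-4 against PBS (1 called) it was 2 by DESeq2, 6 without a filter, 0 at 10 counts, without the replicate set and in each replicate set, and 0 to 1 without a replicate. Here 587 of 13494 genes were called, then 645 by DESeq2, 758 of 27458, 407 of 10893 and 113 of 13494. The replicate sets gave 488 of 12350 and 302 of 13472, and leaving out a replicate gave 384 to 573. For SE+IL-4 against PE+IL-4 (0 called) it was 1 by DESeq2, 2 without a filter, and 0 to 1 without a replicate. All genes had 1 of 13494 called, then 10 by DESeq2, 155 of 27458 without a filter, and 0 to 1 without a replicate. The replicate number as a block gave 0 calls of members in all contrasts with PBS. Of all genes it called 148 of 15949 in SE+IFNγ, 1897 of 15949 in PE+IFNγ, 504 of 13494 in SE+IL-4 and 652 of 13494 in PE+IL-4. Rn7s2 then had 1.50 (adjusted p = 0.124) for SE+IL-4 and Scarna6 0.58 (adjusted p = 0.00553, under the 1.5-fold limit) for PE+IL-4. The deviations of same-numbered libraries had r from -0.32 to 0.24 in the IFNγ table, over 0.1 in 5 of 18 pairs, and from -0.15 to 0.67 in the IL-4 table, over 0.1 in 14 of 18. A library correlated best with its own number in 11 of 36 and 25 of 36 cases, so the numbers were not taken to pair the libraries, although in the IL-4 table they may do so in part. The summed log2 ratio in PBS was 8.98 without the Rn7s genes (11.16 to 11.56 without a replicate) in the IFNγ table and 9.75 to 10.74 without a replicate in the IL-4 table. Against the reported sign, Rn7sk in PE+IFNγ was 0.034 without the replicate set and 0.036 in replicates 4–6, and Snhg12 in SE+IFNγ was -0.11 in replicates 4–6. The cause of these moves was not tested. Of the other values of named genes under alternatives, 3320 kept their side of the threshold, of which 278, called neither way, had the other sign, 60 passed it and 61 lost it. Depth limits replicates 1–3, where 26 of 36 members under 100 bases and 6 of 25 of 150 bases or more had under 10 counts in every library of the IFNγ table, and 21 of 36 and 17 of 25 in the IL-4 table.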
